A study of Mus musculus with 9 samples.

Results

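Genes whose symbol is Zfp followed by a number encode mouse zinc finger proteins. The protein-coding genes from Zfp1 to Zfp499 were taken where all 4 deposited tables listed them and at least 1 of the 9 libraries held 10 reads or more. Of 160 such genes in any table, 154 were in all 4 tables and 153 passed the read minimum, out of 29386 gene identifiers in the series. Zfp82 was in all 4 tables but never exceeded 6 reads. Zfp92, Zfp114, Zfp345, Zfp366, Zfp474 and Zfp488 were in fewer than 4 tables.

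Most of these proteins bind DNA through a row of C2H2 fingers, short folds in which 2 cysteines and 2 histidines hold a zinc ion. Many also carry a KRAB box, which recruits the corepressor TRIM28 and through it SETDB1, a methyltransferase for lysine 9 of histone H3. Genes of this family often lie side by side in the genome, and in several cell types chromatin over such groups of genes carries the same methyl mark. Others bind RNA or act at promoters with no KRAB box.

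Brown adipose tissue (BAT) gave 2 control libraries (Setdb1 fl/fl; Adipoq-Cre-) and 2 Setdb1 AKO libraries (Setdb1 fl/fl; Adipoq-Cre+), where Adipoq-Cre is a recombinase expressed in adipocytes. All 4 carried the floxed Setdb1 alleles. No BAT library had Adipoq-Cre with intact Setdb1, so Cre and the deletion cannot be told apart. Primary brown adipocytes with Setdb1 flox/flox; Rosa26Cre-ERT2, a Cre that 4-hydroxytamoxifen (4-OHT) turns on, gave 1 library with 4-OHT at 1 µM and 1 with the ETOH vehicle. Primary brown adipocytes transfected with the control siRNA siNC gave 1 library, and those given siSetdb1 gave 2. The experiments share no library. The labels give no age or sex, do not explain the prefix TN_CE of the BAT titles, and do not say whether replicates come from separate animals or cultures.

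By letters searched in the translated transcripts, 146 of the 153 proteins had at least 2 fingers, with a median of 11 and a maximum of 36. A KRAB box was found in 81 and not in 72, and a SCAN domain, which pairs such proteins with each other, in 12. Another gene of the set started within 200 kb in 77 cases. These neighbours were mostly KRAB genes, 58 of 77, whereas 53 of the 76 genes that stood alone had no KRAB box. Chromosome 7 held 36 of the 153, chromosome 13 held 19 and chromosome 17 held 16.

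The genes that rose in Setdb1 AKO tissue with printable sequence were Zfp445, Zfp97 and Zfp110, and the coding bases of the finger nearest the N terminus of each show what defines the family. Capitals mark the codons of the 2 cysteines and 2 histidines (GENCODE M21 transcripts, build GRCm38, 5′ to 3′). Each stretch covers 63 bases of the last coding exon. It lies at chr9:122853399-122853461 on the minus strand in exon 7 of 7 for Zfp445, at chr17:17144718-17144780 on the plus strand in exon 4 of 4 for Zfp97, and at chr7:12849494-12849556 on the plus strand in exon 8 of 8 for Zfp110.
Zfp445: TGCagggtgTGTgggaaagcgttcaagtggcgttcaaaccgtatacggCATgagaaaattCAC
Zfp97: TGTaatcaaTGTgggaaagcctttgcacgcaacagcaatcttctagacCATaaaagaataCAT
Zfp110: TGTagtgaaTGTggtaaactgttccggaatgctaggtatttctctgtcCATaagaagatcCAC

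Promoters of the same 3 genes are shown because all 3 rose in BAT. Each window runs from 250 bases before to 50 bases after the RefSeq start (GRCm38.p6), 300 bases in all. It spans chr9:122865957-122866256 on the minus strand for Zfp445, chr17:17121133-17121432 on the plus strand for Zfp97 and chr7:12834511-12834810 on the plus strand for Zfp110. Capitals mark matches on either strand to CCGGAA, the core bound by ETS factors, and to GGGCGG, the GC box.
Zfp445: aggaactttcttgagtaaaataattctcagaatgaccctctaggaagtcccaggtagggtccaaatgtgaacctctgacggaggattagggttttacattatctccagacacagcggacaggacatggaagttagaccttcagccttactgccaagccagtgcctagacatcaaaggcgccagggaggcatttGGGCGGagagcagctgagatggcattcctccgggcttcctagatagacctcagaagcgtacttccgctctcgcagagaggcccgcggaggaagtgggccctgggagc
Zfp97: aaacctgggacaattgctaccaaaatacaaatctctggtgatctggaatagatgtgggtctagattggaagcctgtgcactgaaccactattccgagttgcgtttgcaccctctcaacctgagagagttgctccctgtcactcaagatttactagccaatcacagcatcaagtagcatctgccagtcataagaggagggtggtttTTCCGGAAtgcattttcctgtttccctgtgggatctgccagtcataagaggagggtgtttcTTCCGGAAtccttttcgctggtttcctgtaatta
Zfp110: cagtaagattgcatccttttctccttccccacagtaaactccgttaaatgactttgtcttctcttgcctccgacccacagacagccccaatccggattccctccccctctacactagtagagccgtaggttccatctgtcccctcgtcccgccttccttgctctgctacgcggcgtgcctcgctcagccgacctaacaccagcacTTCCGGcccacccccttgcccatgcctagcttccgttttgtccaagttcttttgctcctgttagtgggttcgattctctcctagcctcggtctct

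The window of Zfp445 held 1 GC box and no ETS core. That of Zfp97 held 4 overlapping matches to the ETS core, lying in pairs since TTCCGGAA reads the same on both strands. Each pair lay just after 1 copy of a direct repeat of 25 bases, whose copies begin at bases 177 and 238 of the window. A direct repeat of that length or more was in 0.846% of all 32851 RefSeq windows. The Zfp110 window held 1 ETS core. RefSeq windows matched 127 of the 153 genes, with 156 windows in all. Of these, 41.7% held CCGGAA on either strand, against 14.9% of all windows, and 43.6% held GGGCGG, against 35.7%. The median number of CG dinucleotides was 16 in windows of Zfp genes and 7 in all windows, and 10, 5 and 15 in those of Zfp445, Zfp97 and Zfp110. Among windows of KRAB genes 47.5% held CCGGAA and 31.2% GGGCGG, and among those without a KRAB box 35.5% and 56.6%. These are matches of letters, not binding sites.

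Total reads per library were 15979479 to 16940622 in BAT, 29911734 and 30176359 in ETOH and 4-OHT, and 17593799 to 18468152 in the siRNA cells. The 153 genes took 0.180% and 0.185% of reads in control BAT, 0.159% and 0.168% in Setdb1 AKO, 0.296% in ETOH, 0.293% in 4-OHT and 0.249% to 0.261% in the siRNA cells. Setdb1, the targeted gene, had normalised counts (reads multiplied by the authors by a library factor) of 455 and 473 in control BAT. In Setdb1 AKO they were 156 and 191. It had 784 in siNC and 371 and 399 in siSetdb1, and 1070 reads in ETOH against 620 in 4-OHT. All 10 brown adipocyte markers passed the read filter in each experiment. In bulk tissue, fewer cells of a type and less RNA per cell cannot be told apart.

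In brown fat, 3 KRAB zinc finger genes rose and 1 SCAN gene fell in Setdb1 AKO, among 134 Zfp genes with at least 10 normalised counts in 2 libraries. Of the 3, Zfp97 reached that level only in AKO. The remaining 19 of the 153 did not reach that level and were not tested. Over all 14466 genes tested, limma called 1.68% at an adjusted p below 0.05 (1.00% higher and 0.677% lower), and the share of Zfp genes was 2.99%. edgeR also called 3 Zfp genes higher and 1 lower (1.02% and 0.705% of all genes), as did limma with the replicate number as a block (1.25% and 0.816%). Since the labels name no separate animals, each p-value reflects library spread alone, which may be technical.

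Zfp445, a KRAB protein with 12 fingers known for keeping methylation at imprinted genes, had the smallest adjusted p of the set. Its normalised counts were 698 and 552 in control BAT and 2093 and 2223 in Setdb1 AKO. Both AKO libraries lay far above both controls. The means were 625 ± 103 and 2158 ± 92.2 (SD, n = 2 each), a 3.47-fold rise (log2 fold change 1.80, SE 0.17, limma adjusted p = 0.00459). Without control 1 or control 2 the adjusted p was 0.0827 or 0.107, with log2 fold changes of 1.96 and 1.63.

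Zfp110 encodes a protein with a SCAN domain, a KRAB box and 5 fingers. It had 234 and 248 normalised counts in control BAT and 519.6 and 582 in Setdb1 AKO, with no overlap. It rose 2.28-fold (log2 fold change 1.19, SE 0.17, adjusted p = 0.0253). Leaving out any 1 of the 4 libraries ended the call, with adjusted p from 0.0512 to 0.247. Of its transcript 31-mers (stretches of 31 bases), 7.51% were shared with Zfp369, a gene on chromosome 13 that also has a SCAN domain, a KRAB box and 5 fingers. Zfp369 had 174 and 158 against 214 and 200.2 normalised counts, also without overlap, but a log2 fold change of 0.32 (adjusted p = 0.463).

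Zfp97, a KRAB protein with 13 fingers, was nearly silent in control BAT, with 1 read in each library (0.917 and 1.01 normalised counts). In Setdb1 AKO it had 31.9 and 50.6 normalised counts. Over 2 reads in the controls and 80 in the AKO libraries, the ratio was 42.8 with a 95% interval of 11.5 to 359, which covers counting error only. The fitted log2 fold change was 4.39 (SE 0.61, adjusted p = 0.0245). Zfp97 passed the read filter only through the AKO libraries, so it had to differ. It was not tested without either of them, and its adjusted p with no filter was 0.206. The call was lost without control 1 or control 2, at adjusted p of 0.139 and 0.130. Reads of Zfp97 are uncertain, since 87.73% of its 31-mers occur in other genes and 84.92% in Zfp960 alone. Zfp960 itself had 3.67 and 2.03 against 14.4 and 20.6 normalised counts (log2 fold change 2.28, adjusted p = 0.136).

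Zfp397, a SCAN protein with 9 fingers and no KRAB box, was the gene that fell. It had 520.1 and 510.3 normalised counts in control BAT and 260.3 and 264 in Setdb1 AKO. The pairs were tight, 515 ± 6.90 and 262 ± 2.68 (SD, n = 2 each), and control was 1.96-fold above AKO (log2 fold change -0.97, SE 0.16, adjusted p = 0.0400). Without any 1 of the 4 libraries the adjusted p lay between 0.0755 and 0.298.

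**Figure D1:**
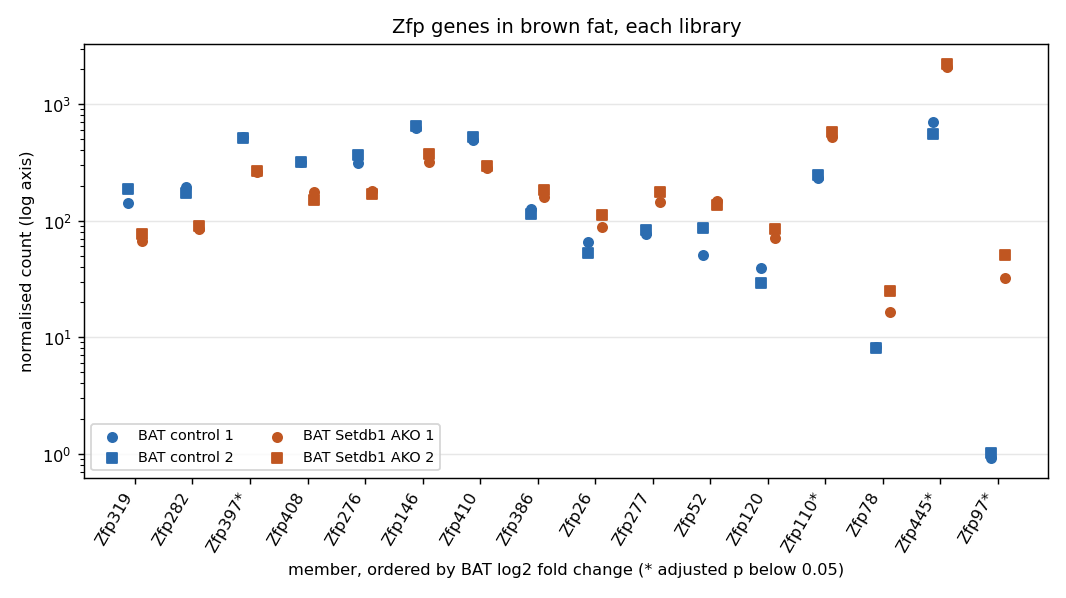
Normalised counts (vertical log axis) of 16 Zfp genes in each BAT library, control in blue and Setdb1 AKO in orange, ordered by log2 fold change. The genes are the 4 that passed the test, marked by stars, and the 6 with the smallest p in each direction among the others. Zfp97 rose from 0.917 and 1.01 to 31.9 and 50.6, and Zfp445 reached 2093 and 2223.

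Below the threshold, the Zfp genes with the smallest p in the lower direction were Zfp146, Zfp408, Zfp276, Zfp410, Zfp282 and Zfp319, with limma adjusted p from 0.0575 to 0.0806. Zfp146, made almost wholly of fingers, had 623 and 645 normalised counts in controls and 320.0 and 375 in AKO (log2 fold change -0.87). Zfp410, an activator best known for driving Chd4, had 491 and 526 against 285 and 297 (-0.80). Chd4 itself had 5896 and 5699 against 5509 and 5211 (-0.11, adjusted p = 0.746). Zfp319, with 12 fingers, had the largest difference of the 6, with 141 and 187 against 66.9 and 77.4 (-1.16). In none of these 6 genes did the groups overlap, but they were chosen for their small p. Over all genes tested, 24.9% were lower without overlap. DESeq2 on the recovered reads called all 6 and also Zfp207, so that it counted 3 higher and 8 lower, against 2.52% and 1.98% of all genes.

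In the higher direction the genes with the smallest p below the threshold were Zfp277, Zfp120, Zfp52, Zfp26, Zfp78 and Zfp386. Of these, Zfp78 passed the read filter only through the AKO libraries, so it had to be higher. Zfp277, known as a partner of Polycomb proteins, had 77.1 and 83.2 against 144 and 175 normalised counts (log2 fold change 0.98, adjusted p = 0.1002). Zfp120, a KRAB gene on chromosome 2, had 39.4 and 29.4 against 71.0 and 84.6 (1.16, adjusted p = 0.132). Zfp52, in a row of KRAB genes on chromosome 17, had 50.4 and 87.3 against 146 and 136 (1.08, adjusted p = 0.149). The most negative fitted value of the set belonged to Zfp169, a KRAB gene with 17 fingers singled out after its values were seen. It had 16.5 and 20.3 normalised counts in controls and 2.06 in each AKO library (log2 fold change -2.66, adjusted p = 0.0927). Zfp169 passed the read filter only through the controls, so it had to be lower in AKO.

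Of the 134 Zfp genes tested in BAT, 77 had a negative log2 fold change and 57 a positive one. That is 57.5% negative, against 49.4% of all genes tested, with a median of -0.20 against 0.01. At least 1.5-fold lower were 39 (29.1%, against 10.8% of all genes), and at least 1.5-fold higher were 17 (12.7%, against 11%). At an unadjusted p below 0.05, 22 were lower (16.4%, against 9.08%) and 7 higher (5.22%, against 8.64%). Groups did not overlap in 60 lower genes (44.8%, against 24.9%) and in 29 higher ones (21.6%, against 25.1%). Control levels differed from the rest of the transcriptome, with a median of 73.9 normalised counts in these 134 genes and 241 in all genes tested.

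Marker sums for other cells in the same BAT libraries were as follows. The 10 macrophage markers summed to 3777 and 5519 normalised counts in controls and to between 4863 and 5594 in AKO. The 10 fibroblast and preadipocyte markers summed to 11245 to 12512 and 11727 to 15918, the 7 endothelial markers to 10932 to 12140 and 10501 to 11604, and the 7 T cell markers to 127 to 327 and 129.997 to 174. Ighm, an immunoglobulin heavy chain gene of B cells, had 56.0 and 46.7 normalised counts in controls and 5384 and 9086 in AKO. It was the only 1 of 7 B cell markers to pass the read filter, so the other 6 were below 10 normalised counts in at least 3 of the 4 libraries and showed no comparable level. The germ line list of 8 summed to 84.4 to 87.3 and 1444 to 1682, with Sycp1 and Tex101 at 0 or absent. Most of this sum was Sycp3, with 68.8 and 76.1 normalised counts in controls and 1365 and 1597 in AKO. Of the 8, only Sycp3 and Sycp2 passed the read filter. The 10 brown adipocyte markers summed to 293960 to 300983 in controls and 265445 to 371180 in AKO. By limma, Elovl3 of this list, Cd14 of the macrophage list and Pi16 of the fibroblast and preadipocyte list rose. So did Ighm, Sycp2 and Sycp3, while 0 T cell and 0 endothelial markers were called. No marker in these lists was called lower. Over all genes tested, 1.00% were called higher and 0.677% lower. The part of these cells in the values of Zfp genes was not tested.

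By class, KRAB genes were centred near 0 in BAT and the others below it. Of 66 tested genes with a KRAB box, 35 were positive and 31 negative, with a median log2 fold change of 0.04 and quartiles of -0.63 and 0.50. Of 68 in which none was found, 22 were positive and 46 negative, with a median of -0.26 and quartiles of -0.63 and 0.14. A KRAB box that departs from the letters searched would be missed, so this class may hold some. The 3 genes that rose were all KRAB genes, and the 1 that fell had no KRAB box. KRAB genes were also expressed at lower levels, with a median control count of 41.4 against 205. The difference between the classes was not tested. Among the 11 tested SCAN genes Zfp110 rose and Zfp397 fell, and 5 were positive.

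Sequence sharing moved with the same values. The 28 tested genes with at least 5% of their 31-mers in other genes had a median of 0.13, with 20 positive and 8 negative. The 106 with less sharing had a median of -0.28, with 37 positive and 69 negative. How the authors' counting treated reads that map to several places is not given in the sources used here. The part of read sharing in the class values was not tested.

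**Figure D2:**
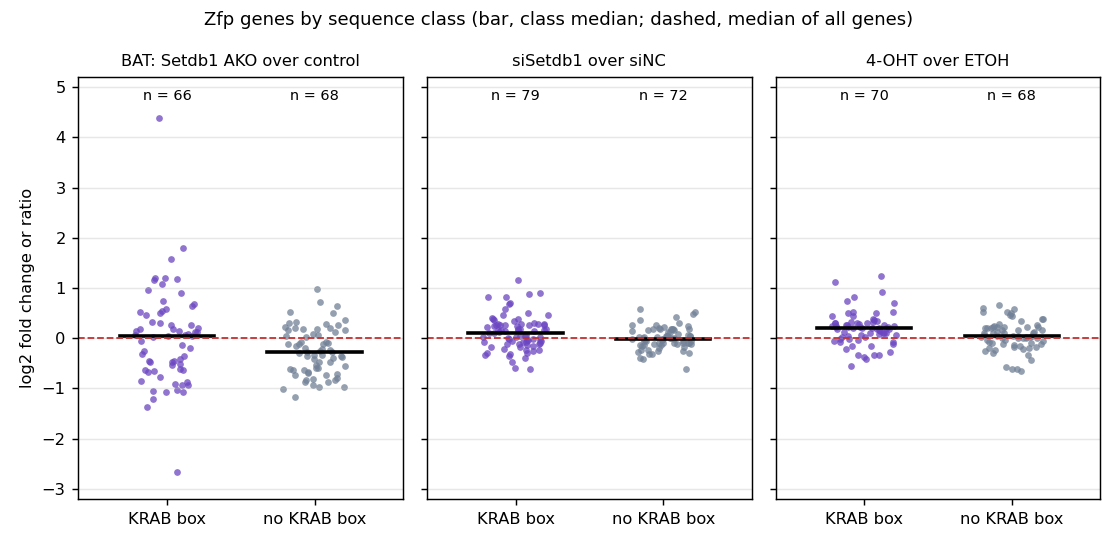
Log2 fold change (BAT and siRNA) or log2 ratio (4-OHT) of each tested Zfp gene by KRAB class, 1 panel per experiment, with the class median as a bar and the median of all genes as a dashed line. The points spread most in BAT, where the medians are 0.04 with a KRAB box and -0.26 without.

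Among neighbouring genes, Zfp110 was the only 1 in a larger group that passed the test in BAT. Groups of at least 4 Zfp genes with starts no more than 200 kb apart lay in 3 places on chromosome 7 and in 1 each on chromosomes 13 and 17. The group at chr7:12804977-12985714 held Zfp110, which rose. Its neighbour Zfp128 had 18.3 and 14.2 normalised counts in controls against 8.23 and 6.19 in AKO (log2 fold change -1.07, adjusted p = 0.360), and Zfp324 had 55.0 and 55.8 against 24.7 and 27.9 (-1.05, adjusted p = 0.171). Zfp128 passed the read filter only through the controls, so it had to be lower in AKO. Zfp446 and Zfp329, the other members of this group, had -0.48 and -0.35.

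In the larger group from base 29768552 of chromosome 7, 9 of 10 genes were tested in BAT and 7 were negative, with a median of -0.63. Its members Zfp146 and Zfp260 had the smallest p. Across 12 KRAB genes from base 67194506 of chromosome 13, only 7 were tested in BAT, 6 of them positive with a median of 0.12. Among them Zfp85 passed the read filter only through AKO, with 9.17 and 6.09 normalised counts in controls. The 4 tested KRAB genes from base 21423227 of chromosome 17 were all positive, from 0.03 for Zfp51 to 1.08 for Zfp52. None of the genes in these 4 other groups passed the test in BAT. In the group from base 24081924 of chromosome 7, 3 of 7 tested genes were positive, with a median of -0.09.

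**Figure D3:**
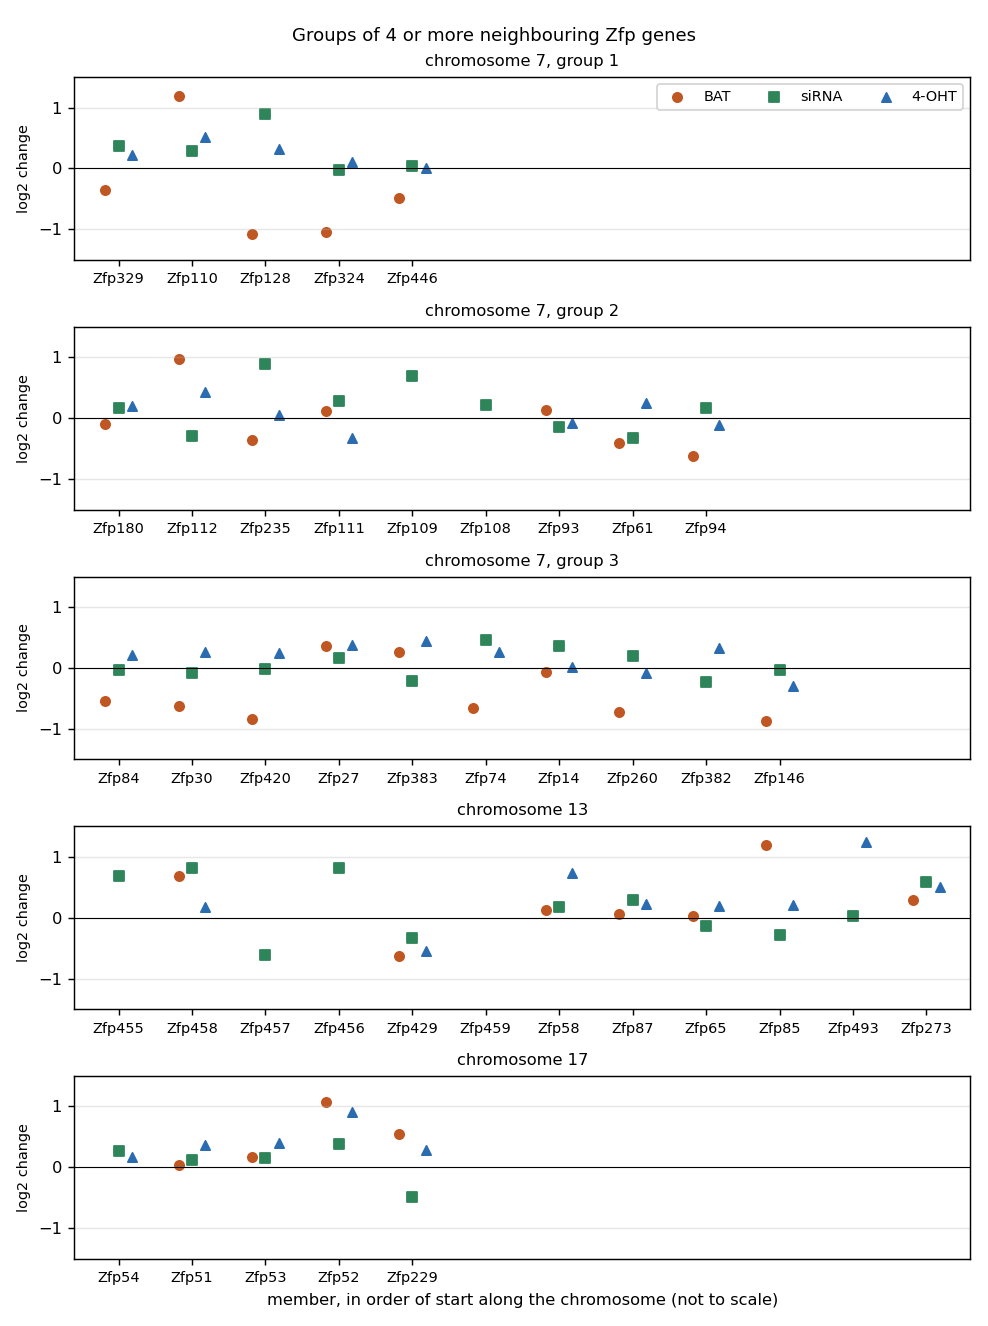
Log2 changes (vertical axes) of Zfp genes in the 5 groups of neighbours, in order of their start along the chromosome and not to scale, in BAT (circles), siRNA (squares) and 4-OHT (triangles). In the top panel Zfp110 stands at 1.19 in BAT between neighbours at -0.35 and -1.07, and in the bottom panel all plotted BAT values are above 0. The neighbour at -1.07, Zfp128, passed the BAT read filter only through the controls.

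After siRNA against Setdb1, no Zfp gene passed the test. Of 15224 genes tested 0.0394% were called, and of the 151 Zfp genes 0 were called by limma, by edgeR or by DESeq2. At an unadjusted p below 0.05 there were 1 higher and 2 lower by limma (1.99%, against 5.06% of all genes, of which 3.02% higher and 2.04% lower), 2 higher and 3 lower by edgeR (3.52% and 2.84% of all genes), and 1 higher and 0 lower by DESeq2 (0.900% and 0.440%). Only Zfp69 and Zfp459 were below the read filter. Both siSetdb1 libraries were above siNC in 57 of the 151 Zfp genes, against 34.1% of all genes. They were below it in 41 of the 151, against 33.8% of all genes. With 1 siNC library there is 1 residual degree of freedom, and the spread of siNC is taken from siSetdb1.

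Zfp235, a KRAB gene, had 82.9 normalised counts in siNC and 172 and 140 in siSetdb1 (log2 fold change 0.90, unadjusted p = 0.00467, adjusted p = 0.718). Zfp335, needed for brain development, had 321 against 211 in each siSetdb1 library (-0.60, adjusted p = 0.835). Zfp467, a factor that promotes adipocyte formation in bone marrow cells, had 705 against 495 and 576 (-0.40, adjusted p = 0.938). All 3 were chosen for these p-values after they were seen, and in each both siSetdb1 libraries lay on the same side of siNC.

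The genes called in BAT had small differences here. Zfp445 had 1287 normalised counts in siNC and 1234 and 1438 in siSetdb1 (log2 fold change 0.05, adjusted p = 0.972), with siNC between the siSetdb1 libraries. Zfp110 had 493 against 614 and 585 (0.28, adjusted p = 0.941). Zfp97 was expressed in siNC, with 41.4 against 59.8 and 49.9 (0.39, adjusted p = 0.952). Zfp397 had 733 against 667 and 699.6 (-0.10, adjusted p = 0.953).

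Over the 151 genes the median log2 fold change was 0.02, against -0.003 over all genes, with 82 positive and 69 negative. KRAB genes had a median of 0.11 (47 of 79 positive) and the others -0.01 (35 of 72 positive). The 10 macrophage markers summed to 955 normalised counts in siNC and to 474 and 498.6 in siSetdb1, with 0 called. Of the 7 T cell markers, Cd3d, Cd3e, Cd3g, Cd4 and Cd8a were at 0 or absent, and Trac had 26.6 in siNC and 34.5 and 26.5 in siSetdb1. The part of these cells in the Zfp values was not tested.

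In the 4-OHT experiment, with 1 library a group and so no test, 138 Zfp genes had at least 50 counts in a library. Of these, 8 were at least 1.5-fold higher with 4-OHT (5.80%, against 4.21% of 13969 genes) and 3 at least 1.5-fold lower (2.17%, against 6.12%). Of the 8, Zfp493 and Zfp433 reached 50 counts only in the 4-OHT library. Scaled by total reads in place of TMM, 7 Zfp genes were higher and 5 lower, against 3.38% and 7.56% of all genes. With at least 100 counts in a library, 4 of 116 were higher and 2 lower, against 3.34% and 4.72% of 12112 genes. Direction leaned upward, with 96 positive and 42 negative log2 ratios (69.6% positive, against 51.7%) and a median of 0.12 against 0.01. With total reads the split was 79 positive and 59 negative (57.2% positive, against 5772 positive of 13969 genes). The median was then 0.05, against -0.05 over all genes.

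The higher genes were mainly KRAB genes. Zfp493, on chromosome 13, had 23 counts in ETOH and 55 in 4-OHT (log2 ratio 1.24). Zfp78 had 98 and 208 (1.12), and Zfp52 had 224 and 409 (0.92). Zfp433 had 33 and 58 (0.83), but 87.12% of its 31-mers lie in other genes. Zfp493 and Zfp433 passed the read minimum only through the 4-OHT library, so they had to come out higher. Zfp58 had 57 and 93 (0.74), with 48.02% of 31-mers shared and exons that overlap Gm26965 on the same strand. Zfp7 had 75 and 119 (0.70) and overlaps Gm49527 in the same way.

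The remaining 2 had no KRAB box. Zfp341, a factor that activates Stat3, had 53 and 82 counts (log2 ratio 0.66). Zfp467 had 202 and 298 (0.61), a direction opposite to that in the siRNA cells. The lower genes were Zfp462, with 828 and 507 counts (-0.65), Zfp428, with 91 and 57 (-0.60), and Zfp105, with 143 and 90 (-0.60). Just short of 1.5-fold, Zfp36 had 2638 and 1700 counts (-0.58). None of the lower genes had a KRAB box by the letters searched.

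By class, the 70 KRAB genes had a median log2 ratio of 0.21, with 53 positive, and the 68 others a median of 0.04, with 43 positive. The genes called in BAT had log2 ratios of 0.25 for Zfp445 (2932 and 3353 counts), 0.52 for Zfp110 (1058 and 1459), 0.30 for Zfp97 (98 and 117) and -0.01 for Zfp397 (1263 and 1213). None of these reached 1.5-fold.

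Other cells also differed between these cultures. Macrophage markers summed to 3603 CPM (counts scaled to a fixed library total) in ETOH and 2009 in 4-OHT, with 5 of 10 at least 1.5-fold lower. Brown adipocyte markers summed to 6855 and 8812 CPM, with 3 of 10 at least 1.5-fold higher, and fibroblast and preadipocyte markers to 12433 and 10833. Over all genes, 4.21% were at least 1.5-fold higher and 6.12% lower. The part of these cells in the Zfp ratios was not tested.

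Between experiments, 130 Zfp genes had values in all 3. No gene was at least 1.5-fold in the same direction in all 3, and 23 were positive and 14 negative throughout. Zfp52 and Zfp78 were at least 1.5-fold higher in both BAT and 4-OHT, which is 2 of the 16 higher in BAT and of the 6 higher in 4-OHT. Zfp428 was the 1 gene lower in both, of 38 and 3. Zfp78 had 8.26 and 8.12 normalised counts in control BAT, 16.5 and 24.8 in AKO, 49.3 in siNC and 61.8 and 70.3 in siSetdb1, with the libraries with less Setdb1 above their controls each time. In BAT Zfp78 passed the read filter only through the AKO libraries, so its BAT value had to be higher there. Zfp52 was also above siNC in both siSetdb1 libraries, with 101 against 147 and 118.

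Across genes, Pearson's r between BAT and 4-OHT values was 0.26 over 130 Zfp genes and 0.16 over 12480 genes. Between BAT and siRNA it was 0.18 over 133 and 0.11 over 13413 genes, and between siRNA and 4-OHT 0.21 over 138 and 0.07 over 12840. Genes are not independent replicates, and Zfp genes share sequence and low counts.

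**Figure D4:**
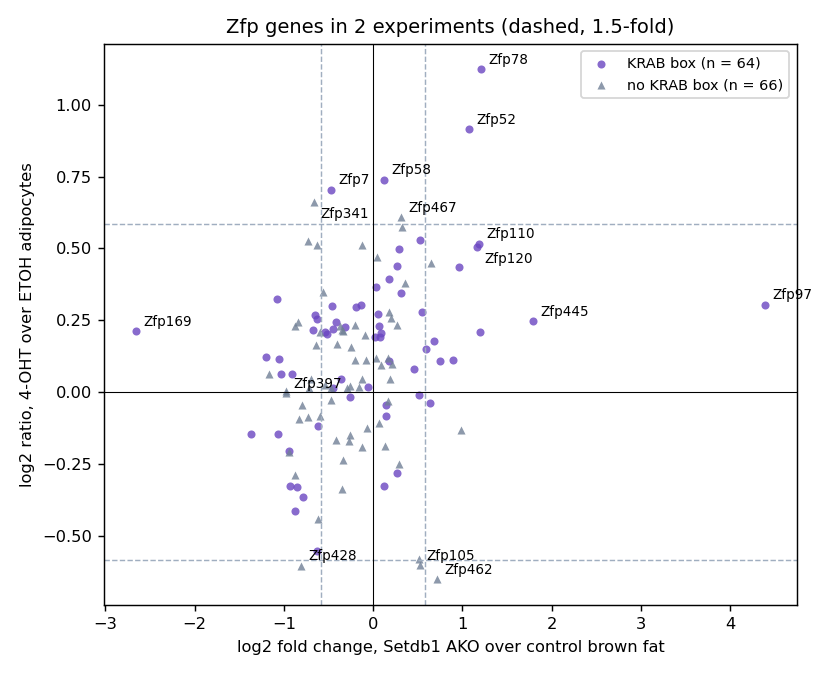
Log2 fold change in BAT (horizontal axis) against log2 ratio in 4-OHT (vertical axis) of 130 Zfp genes, KRAB genes as circles and others as triangles, with dashed lines at 1.5-fold. Zfp52 and Zfp78 lie beyond the lines at the upper right, and Zfp428 at the lower left. Zfp78 passed the BAT read filter only through the AKO libraries.

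Zfp genes differed widely in level. In control BAT the normalised count per kb of gene length ran from 0.0505 for Zfp473 to 692 for Zfp36, with a median of 12.4. The 8 highest were Zfp36, Zfp207 (254 per kb), Zfp106 (205), Zfp146 (194), Zfp219 (186), Zfp358 (177), Zfp91 (177) and Zfp384 (176). None of these 8 has a KRAB box by the letters searched. The last 3 differ by less than the spread between the control libraries.

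Proteins of the set that act on RNA gave mixed values. Zfp36, or tristetraprolin, which speeds decay of mRNAs with AU-rich elements through CCCH fingers, had no C2H2 match. Its normalised counts were 1748 and 3052 in control BAT and 3138 and 3455 in AKO (log2 fold change 0.51, adjusted p = 0.354), so that the controls differed from each other more than the AKO libraries. Zfp106 had 2118 and 2164 against 2159 and 1902 (-0.08, adjusted p = 0.825), with overlapping groups. Zfp207, which acts at spindles and in splicing, had 1418 and 1960 against 1010.5 and 872 (-0.83, adjusted p = 0.0912). Zfp346, a binder of double-stranded RNA, had 207 and 246 against 128 and 119 (-0.87, adjusted p = 0.0997). Zfp326, a splicing factor, had -0.24, and Zfp473, of histone mRNA processing, had at most 3.10 normalised counts in any BAT library.

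None of the listed promoter and chromatin factors passed the test in BAT. Zfp143, an activator of snRNA and other promoters, had 78.0 and 79.1 against 75.1 and 103 normalised counts (log2 fold change 0.16, adjusted p = 0.809). Zfp148 and its relative Zfp281, both binders of GC-rich promoters, had -0.16 and -0.26. Zfp217, which works with CoREST, had 379.7 and 388 against 306 and 435 (-0.07, adjusted p = 0.897). Zfp384 had 1009 and 1252 against 724 and 768 (-0.59, adjusted p = 0.135), and Zfp292 and Zfp318 had -0.70 (adjusted p = 0.186) and -0.60 (adjusted p = 0.150). Zfp91, a ubiquitin ligase, had 0.27, and Zfp451, a SUMO ligase, -0.33. Both AKO libraries lay below both controls for Zfp148, Zfp384, Zfp292, Zfp318 and Zfp451, and above them for Zfp91. Over all genes tested, 24.9% were lower without overlap and 25.1% higher.

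Factors known from fat biology or imprinting were also examined. Zfp423, which commits precursors to the adipocyte lineage, had 241 and 291 against 288 and 205 normalised counts in BAT (log2 fold change -0.12, adjusted p = 0.828). It had 511 against 550.3 and 511 in the siRNA cells, and 738 and 1015 counts in ETOH and 4-OHT (log2 ratio 0.51). Zfp467 had 216 and 239 against 300.5 and 265 in BAT (0.31, adjusted p = 0.447). Zfp69, a KRAB gene tied to fat accumulation in obese mice, had at most 12.4 normalised counts in BAT. Zfp57, the other KRAB protein known for imprinted genes beside Zfp445, had 62.4 and 71.0 against 75.1 and 48.5 (-0.14, adjusted p = 0.867). Zfp90, a KRAB gene, had 3.67 and 7.10 against 0 and 1.03, below the filter.

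The partners of KRAB proteins were read from a list of 25 genes of TRIM28, SETDB1 and H3K9 methylation. In BAT 1 of 23 tested rose and 0 fell, against 1.00% and 0.677% of all genes. Trim28, the corepressor that KRAB boxes bind, had 1447 and 1721 normalised counts in controls and 1031 and 1111 in AKO (log2 fold change -0.56, adjusted p = 0.134). Resf1, a partner of SETDB1 in silencing repeats, was the 1 that rose, from 999.8 and 1469 to 12727 and 12933 (3.40, adjusted p = 0.000522). In the siRNA cells Resf1 (1.22, adjusted p = 0.0106) and Atf7ip (1.18, adjusted p = 0.00484), which protects SETDB1 from degradation, rose and 0 fell. Of all genes tested there, 0.0394% were called. In BAT Atf7ip had 202 and 228 normalised counts in controls and 405 and 540 in AKO. Its log2 fold change there was 1.12, just short of the threshold (limma adjusted p = 0.0503). In 4-OHT 3 of 25 were at least 1.5-fold higher and 1 lower, against 4.21% and 6.12% of all genes. Of the 3, Atf7ip2 had 0.27 CPM in ETOH and 4.04 in 4-OHT. Atf7ip2 passed the read minimum only through the 4-OHT library, so it had to come out higher. Resf1 had a log2 ratio of 2.16, and Atf7ip had 52.2 and 141 CPM in ETOH and 4-OHT.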

How the data were processed

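RNA was sequenced from 4 BAT and 5 cultured libraries of mouse, made with NEBNext Ultra II chemistry per the labels' protocols. Upstream tools, per the submitters' processing notes, were DESeq2 1.36.0, featureCounts 2.0.3, STAR 2.7.10a and Trimmomatic 0.39, with GRCm38 as build. Strand setting and handling of multiply mapping reads are not given in the sources used here. The deposited BAT and siRNA tables hold a signal in which the authors multiplied reads by a library factor, called the normalised count here. For 4-OHT the deposited raw count was used, and a scaled signal and an FPKM that the authors also deposited were not. The log2 fold changes and p-values that the authors deposited were not used. Whole reads were recovered from the signal in 100% of values within 0.05 reads. The siRNA tables were joined through siNC (identical in 19381 genes, link factor 1.0024).

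limma 3.58.1 (R 4.3.3, eBayes with trend) was fitted to log2(normalised count + 1) for genes with at least 10 normalised counts in 2 BAT libraries or 1 siRNA library, with Benjamini-Hochberg adjustment over all genes tested and calls at 0.05. The pseudocount shrinks folds where reads are few. 4-OHT ratios are TMM-scaled log2 CPM with a prior count of 2, where 1 library reached 50 counts. edgeR 4.0.16 and DESeq2 1.42.0 on recovered reads, other filters, scalings and pseudocounts, the replicate block and leaving out each library were alternatives. The scripts were tested on simulated data. Fingers (C, 2 to 4 residues, C, 12 residues, H, 3 to 6 residues, H), KRAB boxes (first 250 residues) and SCAN domains were searched in translated GENCODE M21 transcripts in place of the RefSeq proteins planned, and 152 of 153 genes had the same start and end there. Genes named are those called in BAT (4) or siRNA (0), the up to 10 largest 4-OHT ratios each way past 1.5-fold (11), the 6 smallest p each way in BAT among the rest (12), genes 1.5-fold in all 3 experiments (0), the 8 highest per kb, and 23 of 24 listed genes with known roles. Zfp42 of that list was not among the 153. Genes outside the rule are named from their group or class, or as the text says. The genes and lists were chosen with earlier results of these data known. Exons of 6 of the 153 overlap another gene on the same strand and of 36 on the opposite strand, the latter including Zfp52, Zfp276, Zfp319 and Zfp410, and reads there cannot be told apart without strand. The summed level of the B cell marker list is not reported here.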

Additional observations from a re-analysis of the deposited data

Results flagged for a closer look

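In 4 genes every library of 1 experiment moved opposite to every library of another, and none of these differences was tested. Zfp341 was lower in BAT, with 28.4 and 36.5 against 17.5 and 22.7 normalised counts, and higher in siSetdb1 and in 4-OHT, with differences between the log2 changes of -1.19 and -1.33. Zfp7 differed by -1.17 between BAT (33.9 and 24.3 against 22.6 and 18.6) and 4-OHT. Zfp462 was higher in BAT (24.8 and 15.2 against 41.2 and 25.8) and lower in the cells, with differences of 1.02 from siRNA and 1.37 from 4-OHT. Zfp467 was lower in siSetdb1 and higher elsewhere, with differences of 0.71 between BAT and siRNA and -1.01 between siRNA and 4-OHT. These genes had at most 92.2 normalised counts in BAT and siRNA cells, save Zfp467.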

How the results depend on the processing

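With 2 libraries a group the BAT calls rest on few libraries. The count of 4 Zfp genes called in BAT became 0 with no filter and 11 with DESeq2, and 0 to 1 when 1 library was left out, 0 without either control and 1 without either AKO library, where Zfp97 was not tested. It was 4 with TMM, edgeR and other pseudocounts, and 3 with at least 50 normalised counts. With the replicate block it was also 4. Deviations from the group means of libraries with the same replicate number correlated at r = -0.015 over 14466 genes. The labels do not say whether these numbers pair libraries, and 1 correlation over genes cannot decide it. The BAT median of -0.20 became -0.26 with at least 50 normalised counts and lay between -0.25 and -0.17 with 1 library left out. The siRNA median was 0.0096 with that filter and between 0.016 and 0.048 with 1 siSetdb1 library left out. No paired analysis was possible in siRNA or 4-OHT because 1 group has 1 library. With at least 100 counts, 6 of 116 Zfp genes were past 1.5-fold in 4-OHT (3.34% of all genes higher and 4.72% lower). Signs reversed in BAT with 1 library left out for Zfp106 (-0.17 to 0.012), Zfp57 (-0.45 to 0.17), Zfp281 (-0.55 to 0.019), Zfp423 (-0.37 to 0.12), Zfp217 (-0.33 to 0.18), Zfp105 (-0.23 to 1.27), Zfp143 (-0.064 to 0.39), Zfp69 (-0.29 to 0.65) and Zfp58 (-0.15 to 0.40), and in siRNA for Zfp7 with edgeR (0.059) and DESeq2 (0.063). The cause was not tested. Of 1128 values of named genes under alternatives, 1040 kept their direction and side of the threshold. Depth limits genes with few reads, such as the 15 with fewer than 10 normalised counts in every BAT library.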
